A study of Arabidopsis thaliana with 24 samples.

Results

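DNA methylation of sperm nuclei was compared with that of stem-cell nuclei in thale cress, Arabidopsis thaliana, of the genotype named ago59, whose name joins those of the AGO5 and AGO9 mutants. The comparison takes in 6 of the 24 samples of the series, namely 2 of ago59 sperm and 4 of ago59 stem, and 2 of the 8 pools in the processed table. It was chosen by genotype and cell type from the labels, and no measured value entered that choice. The measured features were genes, pseudogenes, transposable elements and transposable element genes of the 5 nuclear chromosomes. A feature was used where both pools had at least 10 cytosine calls, which left 54292 of 68992 nuclear features in the CG context, 53427 in CHG and 64638 in CHH. The letter H means any base but G.

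The sperm nuclei of ago59 were taken from the pollen of plants aged 35 days, counted from germination, and 50000 nuclei were sorted for each replicate. The stem nuclei of ago59 were taken from seedlings aged 7 days and sorted by mCherry, a red fluorescent reporter, with 3000 to 4000 nuclei for each replicate. The labels name the molecule as nuclear RNA, but the protocol they give starts from genomic DNA, and the values were read as DNA methylation. Libraries were made from 1 to 5 ng of DNA with the Pico Methyl-Seq kit, which converts unmethylated cytosines with bisulfite so that they are read as T. Each group had 2 replicates, and each stem replicate was sequenced in 2 runs. The pools of ago5, ago9 and wt21 were made in the same way and serve here only for values set beside those of ago59. All groups share the accession Col-0 and days of 16 h light and 8 h dark. The labels do not spell out the alleles behind the name ago59, and a methylation table cannot show whether AGO5 or AGO9 protein was made. Cell type goes together with plant age, tissue, sorting and the number of nuclei, and these cannot be told apart.

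In plants, CG methylation is kept through cell division by MET1, which copies it to the new strand. CHG methylation is kept by CMT3 together with histone H3 lysine 9 methylation, and CHH methylation is made anew by CMT2 in long heterochromatic transposons and by RNA-directed DNA methylation at short elements and element edges. In the RNA-directed pathway, small RNAs held by ARGONAUTE (AGO) proteins guide the methyltransferase DRM2 to matching sequences, and AGO5 and AGO9 are members of that family known from germ cells and reproductive tissue.

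The table has 1 column per group and context, so differences could not be set against the spread between replicates, and no p-value is given. A value after ± is the half-width of a 95% interval that covers counting error alone. Several calls can come from 1 read and then depend on each other, which makes these half-widths too small, and variation between plants and libraries lies outside them. The ago59 sperm pool held 204779091 calls and the ago59 stem pool 265294031, and the median transposable element had 15 CG, 13 CHG and 110 CHH calls in sperm against 19, 16 and 146 in stem. Chloroplast DNA, commonly taken as unmethylated, was called methylated at 1.03%, 0.974% and 1.06% of CG, CHG and CHH calls in ago59 sperm, against 0.271%, 0.272% and 0.303% in ago59 stem. Chloroplast features took 0.0230% of the CHH calls of ago59 sperm and 4.66% of those of ago59 stem. The ago9 sperm pool stood apart from the other sperm pools, with a chloroplast CHH level of 4.56%. The mCherry reporter had 0 calls in both ago59 pools. Cell identity could not be checked with marker genes, because no expression was measured.

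CG methylation was higher in ago59 sperm than in ago59 stem in every feature class. Transposable element genes, the annotated genes inside transposons, averaged 90.5% CG methylation in sperm and 76.8% in stem, a difference of 13.7 ± 0.0964 percentage points over 3776 of them. Transposable elements averaged 64.7% in sperm and 53.9% in stem, or 10.8 ± 0.113 points over 17459 elements. Pseudogenes stood at 37.0% in sperm against 29.4% in stem, and genes at 15.8% against 12.8%, a difference of 3.05 ± 0.0257 points over 32169 genes. Of all nuclear features, 27.6% were at least 10 points higher in ago59 sperm and 0.683% at least 10 points lower. Among transposable element genes, 3058 were at least 10 points higher and 4 lower. For transposable elements the numbers were 9024 higher and 329 lower, and for genes 2647 higher and 36 lower. These majorities include the general shift between the pools. Centring the log odds of each pool on its own median takes that shift off. With this centring, 1114 elements were higher and 2752 lower, and 1057 genes were higher and 848 lower.

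CHG methylation differed less. Transposable element genes averaged 46.1% in ago59 sperm and 42.0% in ago59 stem, which is 4.03 ± 0.148 points higher. Transposable elements averaged 27.7% in sperm and 26.1% in stem, or 1.52 ± 0.136 points over 16593 elements. The size of this difference depends on the setting: it was 0.399 points as a median, 1.01 points after the chloroplast correction, 0.860 points without elements that overlap another class and 2.71 points with at least 50 calls. Genes averaged 3.14% in sperm and 2.298% in stem, a difference of 0.846 ± 0.0246 points. Taking the chloroplast level of each pool off left 0.160 points for genes. Of all nuclear features, 7.44% were at least 10 points higher in sperm and 3.89% at least 10 points lower. Elements went both ways, with 2652 higher in sperm against 1837 lower, and with the pools centred on their medians 2114 against 2087. For genes the numbers were 662 higher against 136 lower, which centring brought to 327 against 320.

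In the CHH context the direction turned round at transposons. Transposable element genes averaged 2.85% CHH methylation in ago59 sperm and 6.59% in ago59 stem, a difference of -3.75 ± 0.0390 points. Transposable elements averaged 4.78% in sperm and 6.49% in stem, or -1.71 ± 0.0487 points over 27316 elements. Pseudogenes averaged 1.54% in sperm and 2.32% in stem, but their median difference was 0.232 points, so no direction is given for them. Of all nuclear features, 2.15% were at least 10 points higher in sperm and 4.03% at least 10 points lower. Elements were lower in 2423 cases and higher in 1292, a majority that turns round with the pools centred on their medians, where 1295 were lower and 2208 higher. Genes averaged 1.10% in sperm and 0.769% in stem, and this difference of 0.335 ± 0.00822 points is smaller than the chloroplast difference between the same pools. Taking the chloroplast level of each pool off gave -0.427 points for genes, so no direction is given for CHH in genes.

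**Figure D1:**
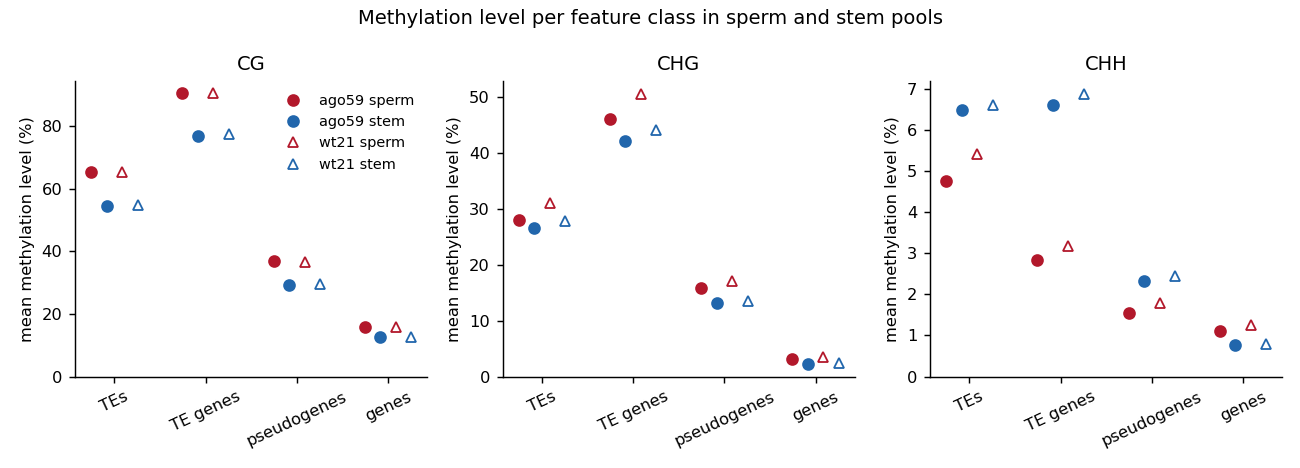
Mean methylation level in percent (vertical axis) of transposable elements (TEs), transposable element genes, pseudogenes and genes, one panel per cytosine context, for features with at least 10 calls in all 4 pools; filled circles are ago59 and open triangles wt21, sperm in red and stem in blue. In CG every sperm point lies above its stem point, and in CHH the sperm points of TEs, TE genes and pseudogenes lie below, with ago59 TE genes at 2.83% in sperm against 6.60% in stem.

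Genes were also divided by their methylation in the wt21 stem pool, which is separate from the ago59 pools. It has the cell type of ago59 stem, so the division is made on 1 side of the comparison. Gene-body methylation means CG methylation inside transcribed genes without CHG or CHH methylation, and the class was taken as at least 20% CG with under 5% CHG and under 2% CHH. The 5543 genes of this class averaged 37.8% CG methylation in ago59 sperm and 32.8% in ago59 stem, or 4.97 ± 0.0674 points, and 767 of them were at least 10 points higher. The 1428 genes with at least 20% CG and at least 20% CHG, which resemble transposons in their methylation, averaged 93.8% CG in sperm and 78.6% in stem. The same genes averaged 45.4% CHG in sperm against 39.3% in stem, and 3.88% CHH in sperm against 6.48% in stem. Their differences of 15.1 ± 0.242, 6.10 ± 0.369 and -2.60 ± 0.0789 points had the same signs as those of transposable element genes. Genes with under 5% CG and under 5% CHG were called unmethylated. These 17955 genes were at 1.84% CG in sperm and 0.911% in stem, beside chloroplast levels of 1.03% in sperm and 0.271% in stem. A further 6911 genes fell in none of these classes.

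Length separated the transposable elements in all contexts. Elements over 4000 bp averaged 91.8% CG in ago59 sperm and 77.8% in ago59 stem, and 1087 of 1209 were at least 10 points higher and 0 at least 10 points lower. Their CHG level was 48.4% in sperm and 45.2% in stem, a difference of 3.25 ± 0.144 points. Their CHH level was 3.44% in sperm against 7.62% in stem, or -4.19 ± 0.0401 points. Elements of up to 500 bp were at 4.32% CHH in sperm and 6.13% in stem, or -1.80 ± 0.0767 points. The smallest CHH difference was in elements over 500 and up to 1000 bp, with 5.64% in sperm and 6.49% in stem. At 10 points or more, 1814 of the 15933 shortest elements were lower and 784 higher, whereas 16 of the 1214 longest were lower and 2 higher. The long elements thus had a large mean difference made of many moderate ones, and the short elements a smaller mean with more extremes in both directions, where counting error is also larger.

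Position on the chromosome also separated the elements in all contexts. Windows of 500 kb were called pericentromeric where transposable elements or their genes covered at least 40% of the bases, and the others were called arms. The names rest on this share alone, so chr1:14500001-15000000, at 28.9% between windows of 80.3% and 84.4%, counts as arm. Pericentromeric elements averaged 39.7% CHG in ago59 sperm and 36.3% in ago59 stem, or 3.32 ± 0.196 points, while elements of the arms averaged 16.1% in sperm and 16.3% in stem, or -0.211 ± 0.189 points. With at least 20 calls per pool the arm difference was 0.114 points, so the direction on the arms depends on this setting. CG was 86.8% in sperm and 73.2% in stem at pericentromeric elements, or 13.6 ± 0.145 points. On the arms it was 43.5% in sperm and 35.4% in stem, or 8.16 ± 0.172 points. CHH was 4.50% in sperm and 7.06% in stem at pericentromeric elements, and 5.00% in sperm and 6.03% in stem on the arms. Within the arms, elements over 4000 bp were at 4.33% CHH in sperm and 8.87% in stem, so length and position were not the same split.

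**Figure D2:**
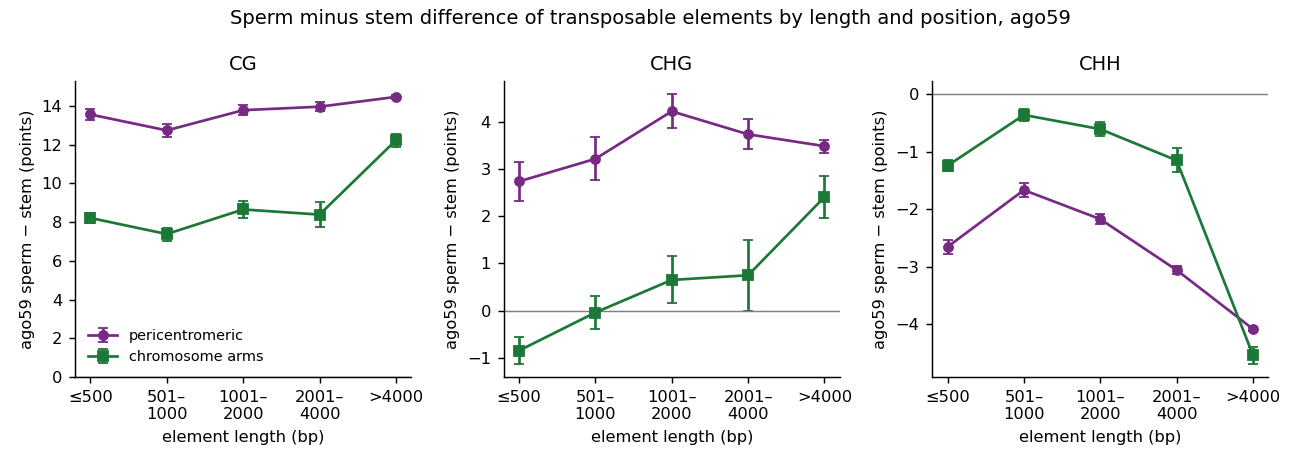
Difference in mean methylation level, ago59 sperm minus ago59 stem, in percentage points (vertical axis) for transposable elements of 5 length classes (horizontal axis), one panel per context; purple circles are pericentromeric and green squares arm elements, and bars are 95% counting half-widths. CHG differences lie between 2.73 and 4.22 points in the pericentromeric classes and between -0.847 and 2.40 points on the arms, and CHH is lowest for elements over 4000 bp, at -4.09 points in pericentromeric windows and -4.54 on the arms.

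The same pattern followed the chromosomes window by window. In windows with at least 20 elements, the mean CG difference was positive in 199 of 202 windows, with a median of 13.5 points in the 47 pericentromeric windows and 7.30 points in the 155 arm windows. The mean CHG difference was positive in all 47 pericentromeric windows, where the median was 3.43 points, and in 70 of 153 arm windows, where it was -0.191 points. The mean CHH difference was negative in 191 of 237 windows, with medians of -2.75 points in pericentromeric and -0.862 points in arm windows. Across windows, the share of bases covered by transposable elements went with the CG difference at a Pearson r of 0.75 and a Spearman rho of 0.717, with the CHG difference at 0.67 and 0.543, and with the CHH difference at -0.50 and -0.456. These windows come from the same 2 pools and share depth and base composition, so the correlations only describe them. All 5 chromosomes had the same signs: their mean differences were between 9.82 and 11.5 points in CG, between 0.882 and 1.99 points in CHG, and between -1.94 and -1.50 points in CHH.

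**Figure D3:**
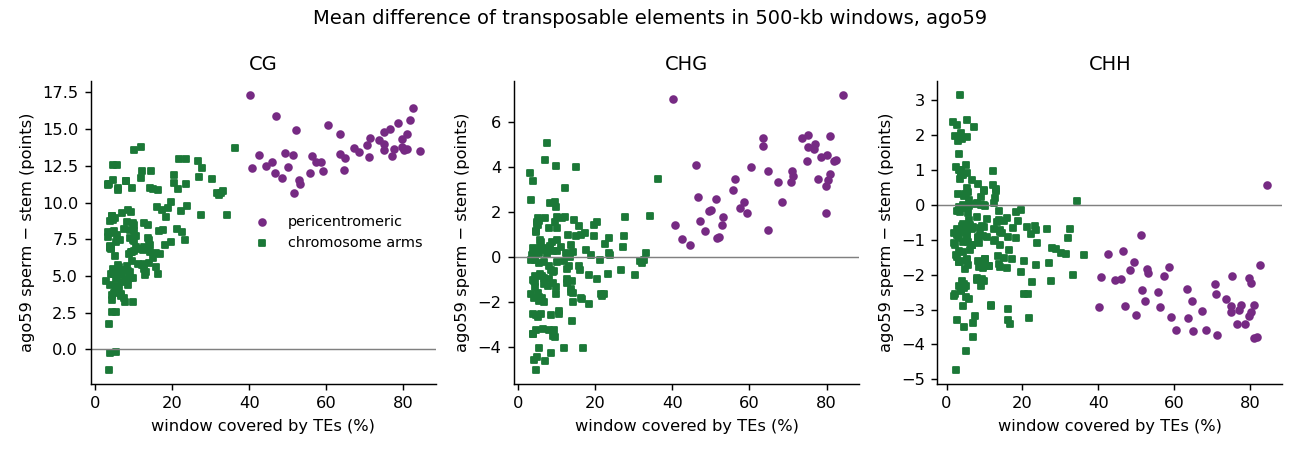
Mean difference of transposable elements, ago59 sperm minus ago59 stem, in percentage points (vertical axis) in windows of 500 kb against the percent of the window covered by transposable elements (horizontal axis), one panel per context and one point per window; purple circles are pericentromeric and green squares arm windows. CG and CHG differences are larger where transposons are dense, and all 47 pericentromeric windows lie above 0 in CHG, while CHH differences lie below 0 in 46 of these 47.

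Elements were also grouped by their level in the wt21 stem pool. That pool has the cell type of only 1 side of the comparison. Groups high in wt21 stem can thus be enriched for elements higher in stem, and groups low in it for the reverse. The values below describe the groups, and how far the grouping shapes them was not tested. In CHH, the 8581 elements with at most 1% in wt21 stem were at 1.88% in ago59 sperm and 1.32% in ago59 stem. The 9554 elements with 5 to 15% were at 4.95% in sperm and 8.18% in stem, or -3.23 ± 0.0685 points, and the 693 elements with 30 to 60% were at 21.7% in sperm and 29.7% in stem, or -7.93 ± 0.547 points. In CG the largest difference was in the 1173 elements of intermediate level, 30 to 60% in wt21 stem, which averaged 65.1% in ago59 sperm and 47.8% in ago59 stem. In CHG the 6719 elements with 30 to 60% were at 46.1% in sperm and 43.4% in stem, and the 1061 elements with 60 to 90% were lower in sperm, at 55.2% against 58.7%.

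The elements with the largest shifts differed in make-up from the others. The 9024 elements at least 10 points higher in CG had a median length of 799.5 bp and a median GC content of 36.0%, and 65.5% of them were pericentromeric. The 8106 elements between the thresholds had medians of 464 bp and 29.7% GC, with 31.5% pericentromeric. The 1292 elements at least 10 points higher in CHH had a median GC content of 24.6%, against 29.9% between the thresholds. They averaged 30.01% CHH in sperm and 9.16% in stem. The 2423 elements at least 10 points lower in CHH had a median length of 237 bp, against 402 bp between the thresholds. They averaged 5.38% in sperm and 24.6% in stem. Such gaps between sperm and stem follow from how the groups were chosen, and counting error widens them. The median depth of the elements lower in CHH, 71 CHH calls in sperm and 100 in stem, was less than that of the elements between the thresholds, which had 156 and 202.

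Individual elements with the largest CHH differences are shown by sequence, because the cytosines that can carry CHH methylation fill them unevenly. AT4TE11090 lies at chr4:2380487-2380671 inside the pseudogene AT4G04693, and had 80.6% CHH methylation in ago59 sperm (95% Wilson interval 72.8 to 86.6%, 124 calls) and 16.2% in ago59 stem (11.1 to 23.0%, 148 calls). AT2TE42930 lies at chr2:10036182-10036438 and overlaps no annotated gene, and had 60.4% in sperm and 0.546% in stem. AT4TE64720, a GA repeat at chr4:13736277-13736390, went the other way, with 13.1% in sperm and 85.9% in stem. AT2TE33100 at chr2:7976289-7976557 had 14.9% in sperm and 76.1% in stem, and AT2TE63580 at chr2:14363737-14364018 had 21.0% in sperm and 79.5% in stem. Sequences are from TAIR10.1 on the annotated strand, plus for AT4TE11090, AT2TE33100 and AT2TE63580 and minus for AT2TE42930 and AT4TE64720, and capitals mark each C in a CHH site and each G that faces a CHH cytosine of the opposite strand.
AT4TE11090: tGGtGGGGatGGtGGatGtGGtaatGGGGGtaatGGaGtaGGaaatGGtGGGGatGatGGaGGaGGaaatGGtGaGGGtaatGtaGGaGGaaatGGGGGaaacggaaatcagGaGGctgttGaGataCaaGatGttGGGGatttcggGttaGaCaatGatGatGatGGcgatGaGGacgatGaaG
AT2TE42930: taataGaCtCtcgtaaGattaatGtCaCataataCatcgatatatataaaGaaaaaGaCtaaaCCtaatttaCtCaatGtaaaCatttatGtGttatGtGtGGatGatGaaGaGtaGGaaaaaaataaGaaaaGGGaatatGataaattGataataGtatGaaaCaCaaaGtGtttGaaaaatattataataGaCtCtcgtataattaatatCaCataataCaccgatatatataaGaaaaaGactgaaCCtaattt
AT4TE64720: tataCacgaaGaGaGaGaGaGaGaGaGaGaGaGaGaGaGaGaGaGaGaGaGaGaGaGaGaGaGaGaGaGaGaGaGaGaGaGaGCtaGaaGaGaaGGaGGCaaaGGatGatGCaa
AT2TE33100: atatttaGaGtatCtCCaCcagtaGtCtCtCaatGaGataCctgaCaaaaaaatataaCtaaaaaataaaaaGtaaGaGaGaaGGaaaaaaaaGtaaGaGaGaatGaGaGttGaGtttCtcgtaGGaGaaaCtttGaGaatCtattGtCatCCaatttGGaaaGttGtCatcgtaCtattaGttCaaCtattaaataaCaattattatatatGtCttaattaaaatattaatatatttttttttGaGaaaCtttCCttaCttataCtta
AT2TE63580: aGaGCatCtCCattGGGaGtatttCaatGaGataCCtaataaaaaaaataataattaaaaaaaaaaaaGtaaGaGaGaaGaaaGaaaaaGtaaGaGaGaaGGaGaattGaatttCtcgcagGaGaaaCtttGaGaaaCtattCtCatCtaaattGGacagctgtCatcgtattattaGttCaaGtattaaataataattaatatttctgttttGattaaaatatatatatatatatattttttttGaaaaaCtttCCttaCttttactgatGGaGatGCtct

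The pair AT2TE33100 and AT2TE63580 is alike in sequence, with 226 identical of 263 aligned bases, or 85.9%, and 25 further bases in gaps. Their levels in wt21 were 7.69% in sperm and 65.4% in stem for AT2TE33100, and 20.2% in sperm and 74.3% in stem for AT2TE63580, so both were far lower in sperm in that genotype too. Reads of such related copies can be hard to place. The run of GA seen in AT4TE64720 was searched for in all elements as GAGAGAGAGA or, for the opposite strand, TCTCTCTCTC. It was present in 1.78% of the 27316 elements with CHH values, in 1.93% of those at least 10 points higher in sperm and in 2.68% of those at least 10 points lower. AT3TE08990, another GA repeat, had 37.3% CHH methylation in ago59 sperm and 89.5% in ago59 stem.

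Among genes, the largest CHH excess was in the long non-coding RNA gene AT3G01295, with 73.1% in ago59 sperm and 19.1% in ago59 stem. It lies inside the longer RNA gene AT3G00170 on the opposite strand, which had 38.8% in sperm and 5.94% in stem, so the same bases count in both. AT4G04775, annotated as a zinc ion binding protein, had 60.7% in sperm and 7.51% in stem. On the lower side, the plant thionin gene AT3G24465, of a family of small antimicrobial peptides, had 9.09% in sperm and 42.3% in stem, against 2.94% and 9.62% in wt21 sperm and stem. AT3G54730, annotated as a transcription repressor, had 3.59% in sperm and 29.5% in stem. In CHG, AT1G62760, annotated in the family of invertase and pectin methylesterase inhibitors, had 57.4% in sperm and 5.04% in stem, and the non-coding RNA gene AT3G09325 had 58.6% in sperm and 4.44% in stem. Of the 20 features with the largest CHH excess in ago59 sperm, 5 in each class, in wt21 18 had the same direction, and of the 20 with the largest deficit all 20 had it. In CHG 20 of the 20 highest and 17 of the 20 lowest had the same direction in wt21, and in CG 20 of the 20 highest and 15 of the 20 lowest, with 1 of 5 for the lowest pseudogenes. The wt21 pools took no part in the choice of these features. The share of all features with the same direction was not computed, so these counts lack a background. In wt21 sperm, 26.4% of all nuclear features were at least 10 CG points higher than in wt21 stem and 0.572% lower. For CHG the shares were 9.29% and 2.91%, and for CHH 2.61% and 3.47%. A CG excess was thus the common direction, and 16 of the 20 highest CG features lie in 1 region, described next.

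The largest CG differences gathered in 1 place. Of the 20 features with the largest CG excess in ago59 sperm, 16 lie at chr2:3200000-3600000, and the region holds a nuclear copy of the mitochondrial genome. AT2G00500, an RNA gene of this region, had 100% CG methylation in sperm over 35 calls and 5.70% in stem over 421 calls, and the pseudogene AT2G07709 had 96.0% in sperm over 329 calls and 14.1% in stem over 2270 calls. Stem had 3.30 times the CG calls of sperm inside the region and 1.13 times outside it on chromosome 2. Over all calls the region was at 91.1% CG in sperm and 31.0% in stem. Mitochondrial features themselves were at 90.2% CG in sperm and 9.14% in stem, and took 0.0462% of CG calls in sperm against 0.322% in stem. Reads from the mitochondrial genome and from its nuclear copy are nearly alike, so levels in the region are uncertain, and what mitochondrial reads contribute was not tested. Without the region the CG difference of genes was 2.93 points and that of pseudogenes 6.51 points, against 7.53 points with it.

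Among transfer RNA genes, those for phenylalanine had CHH methylation in sperm. All tRNA genes together averaged 1.55% CHH in ago59 sperm and 0.485% in ago59 stem over 524 of 625 genes, and 15 were at least 10 points higher and 1 lower, where 2.15% and 4.03% of all nuclear features passed. Of these 15, 8 were genes of the phenylalanine tRNA with the anticodon GAA, which reads the codons of phenylalanine. The 508 other tRNA genes averaged 1.25% in sperm and 0.465% in stem, a difference of 0.783 ± 0.226 points with 7 of them at least 10 points higher, beside chloroplast levels of 1.06% in sperm and 0.303% in stem. This split by tRNA species was made after the values had been seen. Methylation of phenylalanine tRNA genes in the male sexual lineage of wild-type Arabidopsis is known from earlier work. The reference has 17 such genes on 5 chromosomes, and 15 of them have the same sequence of 73 bases, while AT1G68950 differs at 2 positions. AT2G05315, which had 0 calls, has a different sequence of 69 bases. It lies in the chromosome 2 region that holds the nuclear copy of the mitochondrial genome. The common sequence is shown for AT1G02480 at chr1:515494-515566, plus strand, and beside it AT1G68950 at chr1:25928196-25928268, plus strand, from TAIR10.1. Capitals mark CHH cytosines and G facing a CHH cytosine of the opposite strand.
AT1G02480: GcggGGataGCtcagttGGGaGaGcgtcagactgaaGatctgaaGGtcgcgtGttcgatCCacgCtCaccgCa
AT1G68950: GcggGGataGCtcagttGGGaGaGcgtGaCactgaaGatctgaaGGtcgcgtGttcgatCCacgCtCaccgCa

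Over the 16 phenylalanine tRNA genes with calls, the CHH level was 0% at the lowest, 11.4% at the median and 39.5% at the highest in ago59 sperm, and 0%, 0% and 7.69% in ago59 stem. The level was above that of stem in 12 genes and 0% in both pools in the other 4. AT3G15585 had 21.2% in sperm over 66 calls and 0% in stem over 109 calls, which allows up to 2.75%, and AT5G54375 had 39.5% in sperm and 2.22% in stem. AT1G68950, the variant copy, had 8.00% in sperm and 7.69% in stem. Its CG level in ago59 was 71.1% in sperm and 22.5% in stem. In wt21 its CHH level was 14.0% in sperm and 0% in stem over 218 calls, which allows up to 1.38%. Its CHH level was 12.9% in ago5 sperm and 3.55% in ago5 stem, and 4.17% in ago9 sperm and 5.66% in ago9 stem. The mean difference was 9.93 ± 2.28 points in CHH, 10.7 ± 3.92 points in CHG and 19.6 ± 3.23 points in CG. In CG, 13 of the 16 genes were at least 10 points higher, and the median gene had 20.4% in sperm and 0% in stem. Taken over all calls of these genes, CHH methylation was 11.6% in ago59 sperm and 1.45% in ago59 stem. The same value was 13.8% in ago5 sperm and 0.871% in ago5 stem, 13.3% in ago9 sperm and 0.934% in ago9 stem, and 14.2% in wt21 sperm and 0.315% in wt21 stem. Among the other tRNA species with at least 5 genes, the mean CHH difference in ago59 reached at most 4.28 points, in 10 methionine tRNA genes annotated without an anticodon, whose median difference was 0.794 points. The 11 methionine genes with the anticodon CAT had a mean difference of 0.793 points. In CG a large difference was not particular to phenylalanine genes. The same 10 methionine genes without an anticodon averaged 32.3% CG in sperm and 15.0% in stem, or 17.2 ± 5.82 points. The 38 proline genes with the anticodon TGG differed by 7.45 ± 2.64 CG points. The 483 tRNA genes other than those of phenylalanine differed by 1.89 ± 0.456 CG points. Because the gene bodies are identical, reads can be placed only by their flanks, and the calls of single copies are less certain than those of the family.

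**Figure D4:**
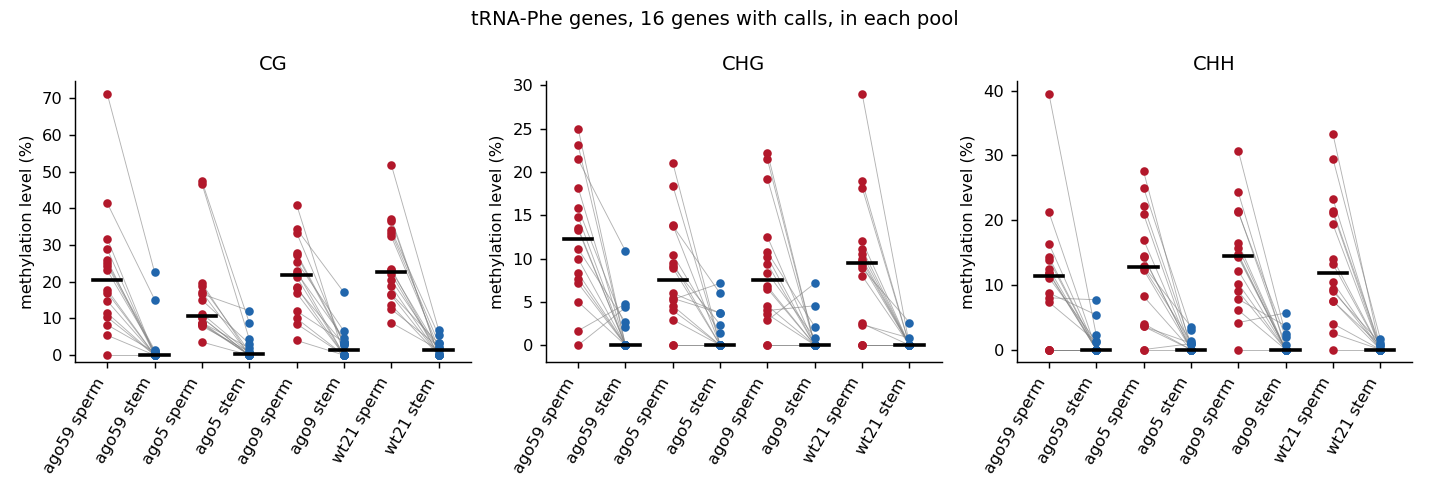
Methylation level in percent (vertical axis) of the 16 phenylalanine tRNA genes with calls in sperm (red) and stem (blue) pools of ago59, ago5, ago9 and wt21, one panel per context; thin lines join the same gene and black bars are medians. In CHH the median is 11.4% in ago59 sperm and 11.8% in wt21 sperm, and 0% in the stem pools of both.

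Among other non-coding RNA genes, 228 microRNA genes averaged 28.0% CG in ago59 sperm and 21.8% in ago59 stem. Of them 49, or 21.5%, were at least 10 points higher, against 27.6% of all nuclear features. The share was 8.23% of all genes and 7.38% of protein-coding genes. The 3372 long non-coding RNA genes averaged 15.7% CG in sperm and 12.3% in stem, close to the 15.9% and 13.0% of 27051 protein-coding genes. Small nucleolar RNA genes, which guide modification of ribosomal RNA, were nearly free of CHH methylation, with 0.714% in sperm and 0.297% in stem, and 0 of 286 were past 10 points in either direction.

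Of the genes listed for known roles in methylation, gametes, meristems and imprinting, 85 were measured in CG. At least 5 points higher in ago59 sperm were 22 of them, or 25.9%, against 20.5% of all genes, and 0 were at least 5 points lower, against 0.74% of all genes. Their median difference was 1.97 points, beside 0.996 points over all genes.

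In the argonaute family, AGO5 itself had 3.86% CG methylation in ago59 sperm and 0.935% in ago59 stem, and AGO9 had 4.41% in sperm and 3.10% in stem. AGO10, which acts in the shoot meristem, had 52.9% in sperm and 40.6% in stem, and AGO6, a partner of RNA-directed methylation, had 14.6% in sperm and 7.41% in stem. These were the 2 of 9 measured members at least 5 points higher. Among 14 measured genes of RNA-directed methylation, 6 were at least 5 points higher, the most of any list. SHH1, which recruits RNA polymerase IV to methylated histones, had 35.5% in ago59 sperm and 19.5% in ago59 stem, against 25.7% and 14.4% in wt21 sperm and stem. NRPD1, the largest subunit of that polymerase, had 70.8% in sperm and 56.8% in stem. The chromatin remodellers DRD1 and CLSY1 had 56.0% and 49.2% in sperm, against 44.8% and 38.1% in stem, and RDR2, which makes double-stranded precursors, and DCL3, which cuts them into small RNAs, were 7.96 and 6.43 points higher. All of this is CG methylation; no gene of either list was 5 points away in CHG or CHH, where differences stayed between -0.360 and 1.99 points. Among all genes 0.816% were at least 5 CHH points higher and 1.31% lower, and in CHG 0.845% were lower.

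Of 11 measured genes that maintain methylation, 2 were at least 5 points higher in CG. Both encode histone methyltransferases: SUVH5 had 59.3% in sperm and 48.4% in stem, and SUVH6 had 28.5% in sperm and 22.1% in stem. The demethylase gene ROS1 had 28.3% in sperm and 20.5% in stem. Of 9 measured sperm-cell genes, 3 were at least 5 points higher. PCR11, a gene active in sperm cells, had 19.2% in ago59 sperm and 6.18% in ago59 stem, while wt21 had 0.482% in sperm and 0.377% in stem, so that both ago59 pools lay above both wt21 pools. GEX2, which encodes a sperm surface protein, had 34.8% in sperm and 27.3% in stem, and GCS1, the gamete fusion gene at AT4G11720, had 23.2% in sperm and 17.2% in stem. The 11 shoot meristem genes held little methylation, with at most 9.57% CG in sperm and 9.14% in stem, and 0 of them were 5 points apart. CLV3, the stem-cell signal of the meristem, had 0% in sperm over 105 calls, which allows up to 2.86%, and 2.83% in stem.

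Among 16 measured imprinted genes, 5 were at least 5 points higher in CG. MPC, which encodes the carboxy-terminal part of a poly(A)-binding protein and is silenced by methylation on the paternal side, had 94.7% CG in ago59 sperm over 57 calls and 58.9% in ago59 stem over 95 calls. The gene overlaps a feature of another class. Its CHG level was 65.6% in sperm and 39.8% in stem, and it was the only listed gene 5 points away in CHG, where 3.56% of all genes were at least 5 points higher. In wt21 it had 96.8% CG in sperm and 56.6% in stem. FWA, a homeobox gene silenced by promoter methylation, had 22.2% CG in sperm and 11.9% in stem. Of the MADS-box genes, AGL28 had 36.1% in sperm and 24.4% in stem, and AGL36 had 97.5% in sperm and 89.1% in stem. Of 12 loci known for silencing by methylation, 4 were at least 5 points higher in CG, FWA among them. BNS, a cell-cycle gene, had 11.6% in ago59 sperm and 2.27% in ago59 stem, against 3.70% and 0.446% in wt21 sperm and stem, and the resistance gene RPP4 had 72.6% in sperm and 62.7% in stem. SUP, a floral regulator, had 8.14% CHH in ago59 sperm and 5.10% in ago59 stem, against 19.2% and 5.35% in wt21 sperm and stem. MPS1, a meiotic gene whose methylation in the male lineage is known from wild type, had 4.87% CG in ago59 sperm and 4.67% in ago59 stem. Its CHH level was 0.731% in sperm against 0.228% in stem, no higher than that of chloroplast DNA. These levels are taken over the whole gene, and no wt21 value is set beside them. They cannot show whether methylation of a part of the gene was present or absent in ago59.

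Set beside wt21, the mean sperm minus stem difference of elements was larger in ago59 in CG and smaller in CHG, but the size of both gaps depends on how features are averaged. Over 16570 elements with calls in all 4 pools, CG was 65.3% in ago59 sperm and 54.5% in ago59 stem, against 65.3% in wt21 sperm and 55.0% in wt21 stem. The sperm minus stem difference was thus 0.533 ± 0.151 points larger in ago59, at 10.8 against 10.3 points, while the median gap was 0 points. In CHG the elements were at 28.0% in ago59 sperm and 26.5% in ago59 stem, against 31.0% in wt21 sperm and 27.8% in wt21 stem, a gap of -1.58 ± 0.185 points as a mean, -0.414 points as a median and -2.23 points over all calls. Genes had CG and CHG gaps of 0.111 ± 0.0345 and -0.177 ± 0.0332 points; the CG gap was 0 as a median and 0.00537 points over all calls, and the CHG gap turned to 0.0942 points after the chloroplast correction. At transposable element genes the CHG difference was 4.04 points in ago59 and 6.27 points in wt21, a gap of -2.23 ± 0.201 points. In CHH the elements were 1.72 points lower in ago59 sperm and 1.21 points lower in wt21 sperm than in stem, a gap of -0.511 ± 0.0649 points, which was -0.226 points after the chloroplast levels were taken off, -0.123 points over all calls and -0.0432 points as a median. For transposable element genes the CHH gap was -0.0562 ± 0.0520 points. With 1 pool per group, a gap of this size may also lie within the spread between libraries, which was not measured.

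The CHG gap was present in pericentromeric and arm elements, at -1.96 ± 0.264 and -1.19 ± 0.258 points. By length it was smallest in elements over 500 and up to 1000 bp, at -1.10 ± 0.380 points, and largest in those over 4000 bp, at -2.45 ± 0.196 points. The CHH gap ran otherwise: it was -0.486 ± 0.103 points in elements of up to 500 bp, -0.656 ± 0.107 points in those over 1000 and up to 2000 bp, and -0.0456 ± 0.0554 points in those over 4000 bp.

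The ago5 and ago9 pools place these values. For 14088 elements that had calls in each of the 8 pools, CHG differed by 1.72 ± 0.128 points in ago59, 1.54 ± 0.132 in ago5, 2.74 ± 0.132 in ago9 and 3.24 ± 0.122 in wt21. The sperm levels behind it were 28.7% in ago59, 29.1% in ago5, 30.9% in ago9 and 31.5% in wt21, and the stem levels 26.9%, 27.6%, 28.1% and 28.3% in the same order. In CHH the difference was -1.74 points in both ago59 and ago5, -1.53 in ago9 and -1.23 in wt21. In CG it was 10.9 points in ago59, 10.1 in ago5, 10.5 in ago9 and 10.4 in wt21. With the chloroplast level of each pool taken off, a setting added after the data were seen, the CHG difference was 1.22 points in ago59, 0.852 in ago5, 0.275 in ago9 and 2.57 in wt21. The CHH difference became -2.48 points in ago59, -2.74 in ago5, -5.77 in ago9 and -2.25 in wt21. The ago9 values thus rest on the 3.72% CHG and 4.56% CHH chloroplast levels of its sperm pool, although nuclear genes had only 1.19% CHH in that pool, beside 1.10% in ago59 sperm, 1.18% in ago5 sperm and 1.25% in wt21 sperm. The order of the genotypes in CHG and CHH depends on this correction.

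**Figure D5:**
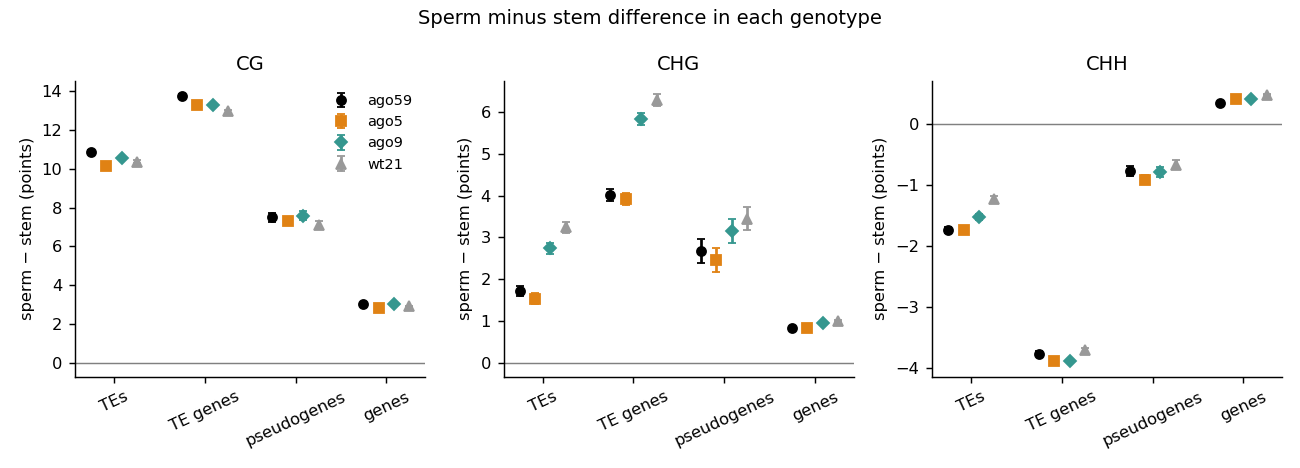
Difference in mean methylation level, sperm minus stem, in percentage points (vertical axis) for 4 feature classes in ago59 (circles), ago5 (squares), ago9 (diamonds) and wt21 (triangles), one panel per context, over features with at least 10 calls in all 8 pools and without chloroplast correction; bars are 95% counting half-widths. The CHG difference of TEs is 1.72 points in ago59 and 3.24 in wt21, while the CG differences of the genotypes lie close together.

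The elements with large shifts were partly shared between the genotypes. Of the elements, 8668 were at least 10 CG points higher in ago59 sperm than in ago59 stem and 8360 in the wt21 comparison, where 27.4% and 26.4% of all nuclear features passed, with 0.641% and 0.572% at least 10 points lower. The 6522 elements in both are 75.2% of the ago59 list and 78.0% of the wt21 list. Elements passed more often than features in general, however: 52.3% of all 16570 elements compared were that much higher in ago59. For all nuclear features in CHG the shares were 7.2% higher and 3.63% lower in ago59, and 9.29% higher and 2.91% lower in wt21. In CHG, 1204 elements were at least 10 points higher in both, which is 48.8% of the 2466 in ago59 and 38.3% of the 3140 in wt21. Of all 15690 elements compared in CHG, 15.7% were that much higher in ago59. The CHH shares were 2.08% higher and 3.93% lower in ago59, and 2.61% higher and 3.47% lower in wt21. In CHH, 863 elements were at least 10 points lower in both, which is 36.9% of the 2339 in ago59 and 41.7% of the 2068 in wt21. Of all 26734 elements compared in CHH, 8.75% were that much lower in ago59. Of the 302 elements at least 10 CG points lower in ago59, 76 were also lower in wt21, or 25.2%, and 78 were at least 10 points higher there. Over all 16570 elements, 275 were that much lower in wt21 and 8360 that much higher. Of the elements higher in ago59, 74 of 8668 in CG, 175 of 2466 in CHG and 117 of 1236 in CHH were at least 10 points lower in wt21. Over all elements compared, 1359 of 15690 in CHG and 2068 of 26734 in CHH were that much lower there. Of the elements lower in ago59, 307 of 1670 in CHG and 168 of 2339 in CHH were at least 10 points higher in wt21. Over all elements, 3140 of 15690 in CHG and 1531 of 26734 in CHH were that much higher there. The CHG and CHH counts lie near these shares, so no reversal particular to the elements is read from them.

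A few features had methylation in the ago59 pools that was absent or full in wt21, and they were named for the size of the gap between the genotypes. AT1G09245, annotated as a protein of the plant self-incompatibility S1 family and overlapping a feature of another class, had 96.2% CG methylation in ago59 sperm over 80 calls and 52.0% in ago59 stem over 50 calls. In ago5 it had 7.14% in sperm and 0% in stem, in ago9 58.9% in sperm and 35.0% in stem, and in wt21 0.84% in sperm and 0% in stem, where the 0 of stem allows up to 3.75% in ago5 and 3.61% in wt21. The element AT5TE32050, at chr5:8850535-8850643 on the minus strand, had 77.2% CG in ago59 sperm and 23.3% in ago59 stem. In ago5 it was at 67.6% in sperm and 44.4% in stem, and in ago9 at 72.7% in sperm and 23.8% in stem. In wt21 it was at 0% in sperm over 62 calls and in stem over 70 calls, which allow up to 4.84% and 4.29%. AT3TE47740, at chr3:11453218-11453306 on the plus strand and overlapping a feature of another class, was the reverse case, with 71.0% in ago59 sperm and 13.4% in ago59 stem, while the pools of ago5 and ago9 lay between 92.2% and 97.4%, and wt21 had 97.3% in sperm and 96.3% in stem. Their sequences from TAIR10.1 are shown for the CG sites, in capitals, on which these levels rest; each holds 6 of them.
AT5TE32050: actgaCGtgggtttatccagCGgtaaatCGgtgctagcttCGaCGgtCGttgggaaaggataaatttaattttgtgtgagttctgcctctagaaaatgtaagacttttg
AT3TE47740: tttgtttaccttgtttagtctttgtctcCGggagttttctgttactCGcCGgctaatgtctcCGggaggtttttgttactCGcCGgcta

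At these 3 features both ago59 pools departed from both wt21 pools in the same direction. Within ago59 sperm had the higher level. That follows from the choice by the gap in sperm minus stem difference, because wt21 sperm and stem were alike at these features. The tRNA gene AT3G15055, for isoleucine, had 0% CG methylation in ago59 sperm over 45 calls and in ago59 stem over 123 calls, which allow up to 6.67% and 2.44%, while wt21 had 46.8% in sperm and 7.76% in stem. The microRNA gene MIR5662 had 4.88% CHH in ago59 sperm and 5.46% in ago59 stem, against 3.35% in wt21 sperm and 33.7% in wt21 stem.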

How the data were processed

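Bisulfite sequencing reads had been processed by the authors, whose notes name Trim Galore, Bismark, bedtools 2.30.0 and the TAIR10 build, per the submitters' processing notes. The deposited table holds counts of methylated and of all cytosine calls for 69289 features in 48 columns, per the file headers, and all 48 were mapped to groups (0 were not). The columns named wt were read as wt21. How replicates and runs were combined is not given in the sources used here. The methylation fraction of a feature was computed from the deposited counts of the authors as methylated over all calls, and is printed in percent. Features with at least 10 calls in both pools were averaged with equal weight, and a difference of at least 10 points was counted as higher or lower. With 1 pool per group no test between conditions was possible. Half-widths come from binomial variances with 1 call added on each side, and single levels have Wilson intervals at 95%. A level of 0 allows up to 3 calls of the total. Intervals and limits cover counting error only.

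Coordinates, gene products and sequences come from the TAIR10.1 assembly (RefSeq). Of 68992 nuclear features, 37803 have a locus tag there, and 37799 of these have the same start and end. Named features are the 5 highest and 5 lowest differences per class and context with at least 30 calls (CG, CHG) or 100 calls (CHH) in both pools, the 3 highest and lowest gaps between ago59 and wt21 for genes and elements, listed genes at least 5 points apart, and AGO5 and AGO9. SUP, MPS1 and CLV3 lie outside this rule, as do AT4G04693 as the host of a named element and the tRNA genes, and were chosen after their values were seen. Of 94 listed symbols 85 were matched, with GCS1 taken as AT4G11720. The members and lists were chosen with earlier results of these data known.

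Alternatives were other call minimums, levels over all calls, medians, a correction for the chloroplast level, thresholds of 20 points, Fisher's exact test (which compares libraries), centring on medians and leaving out overlapping features. Centring used log odds, with 0.01 added to the methylated and the unmethylated fraction. It set the medians of both pools equal within a class and thus takes off the general shift between them. The region left out on chromosome 2, the tRNA split with its alternatives, the chloroplast correction of the 4 genotypes and the classes by wt21 stem level were chosen after the data were seen. Scripts (Python 3.11.15, numpy 2.4.6, scipy 1.17.1, pandas 2.3.3, matplotlib 3.10.9) were tested on simulated data.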

Additional observations from a re-analysis of the deposited data

Results flagged for a closer look

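A number of genes and elements had sperm minus stem differences of opposite sign in ago59 and wt21. They were chosen for a large gap between the genotypes among all features with calls in the 4 pools, the gap was not tested, and there is 1 pool per group.

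These are the CG differences, sperm minus stem, of the 4 features concerned. AT1TE42945 was at 30.2 points in ago59 and -25.9 in wt21, and AT1TE55730 had a difference of -31.1 points in ago59 against 27.5 in wt21. AT5TE31715 stood at -27.0 points in ago59 and at 27.4 in wt21, and AT3TE42650 was at -8.44 points in ago59 and 42.0 in wt21.

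These are the CHG differences, sperm minus stem, of the 11 features concerned. AT1G09137 had a difference of 12.0 points in ago59 against -29.7 in wt21, and AT5G36360 stood at 32.9 points in ago59 and at -5.67 in wt21. AT1G59930 was at 13.1 points in ago59 and -22.4 in wt21, and AT2G04345 had a difference of -3.35 points in ago59 against 43.3 in wt21. AT2G07890 stood at -32.0 points in ago59 and at 12.6 in wt21, and AT3G01025 was at -0.506 points in ago59 and 43.0 in wt21. AT4TE52400 had a difference of 32.0 points in ago59 against -16.4 in wt21, and AT1TE55520 stood at 26.4 points in ago59 and at -21.0 in wt21. AT2TE17480 was at -17.2 points in ago59 and 41.9 in wt21, and AT1TE71830 had a difference of -28.0 points in ago59 against 25.9 in wt21. AT3TE73690 stood at -17.7 points in ago59 and at 34.6 in wt21.

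These are the CHH differences, sperm minus stem, of the 10 features concerned. AT3G06245 was at 27.0 points in ago59 and -2.21 in wt21, and AT1G53655 had a difference of -9.93 points in ago59 against 30.8 in wt21. AT1G05793 stood at -25.5 points in ago59 and at 14.9 in wt21, and AT5G04845 was at -13.0 points in ago59 and 24.2 in wt21. AT1TE58315 had a difference of 58.4 points in ago59 against -19.7 in wt21, and AT4TE14945 stood at 39.6 points in ago59 and at -7.51 in wt21. AT1TE85105 was at 28.9 points in ago59 and -14.6 in wt21, and AT3TE27240 had a difference of -30.1 points in ago59 against 42.1 in wt21. AT2TE07955 stood at -38.8 points in ago59 and at 32.7 in wt21, and AT5TE11930 was at -25.9 points in ago59 and 31.7 in wt21.

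Organelle features lie outside the nuclear comparisons and also differed. Mitochondrial features had 90.2% CG, 43.2% CHG and 2.14% CHH methylation in ago59 sperm, against 9.14%, 5.29% and 0.991% in ago59 stem. Chloroplast features had 1.03% CG, 0.974% CHG and 1.06% CHH in ago59 sperm, against 0.271%, 0.272% and 0.303% in ago59 stem. The chloroplast calls of sperm are few, at 0.0230% of its CHH calls.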

How the results depend on the processing

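No paired analysis was possible because the table has 1 column per group, and leaving out a replicate was not possible for the same reason. The 177 differences of named features were recomputed under the chloroplast correction alone, where all 177 moved by less than their counting half-width. Those larger than their half-width thus kept their direction, and smaller ones were not checked for direction. In the order genes CG, elements CG, genes CHG, elements CHG, genes CHH and elements CHH, the mean differences in points were 1.93, 11.7, 0.441, 2.09, 0.401 and -3.49 over all calls, 0.996, 10.4, 0.424, 0.399, 0.419 and -0.541 as medians, and 2.41, 10.6, 0.160, 1.01, -0.427 and -2.45 after the chloroplast correction. The median CHH difference of pseudogenes was 0.232. Without features that overlap another class the values were 2.89 (genes CG), 0.780 (genes CHG), 0.860 (elements CHG), 0.379 (genes CHH) and -1.54 (elements CHH), and transposable element genes, which all overlap, have no value. With at least 1 call they were 3.10 (genes CG), 10.95 (elements CG) and 1.19 (elements CHG). With at least 20 calls they were 3.01 (genes CG), 11.0 (elements CG), 1.95 (elements CHG) and 0.114 (arm elements CHG, which turned round). With at least 50 calls they were 2.91 (genes CG), 11.7 (elements CG), 0.748 (genes CHG), 2.71 (elements CHG) and 0.345 (genes CHH). Without the region on chromosome 2, genes were at 2.93 in CG and 0.786 in CHG.

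Numbers of features, higher and lower, at 20 points were 600 and 2 (genes CG), 254 and 36 (genes CHG), 21 and 17 (genes CHH), 2868 and 111 (elements CG), 940 and 777 (elements CHG), and 506 and 773 (elements CHH). With centred pools they were 1057 and 848, 327 and 320, 52 and 198 for genes in CG, CHG and CHH, and 1114 and 2752 in CG and 2208 and 1295 in CHH for elements. With Fisher's exact test 14 genes were lower in CG, 316 were higher and 26 lower in CHG, 43 elements were lower in CG, and 440 were higher and 166 lower in CHG. The elements lower in CG numbered 511 at 5 calls and 176 at 20 calls, where 1746 were higher and 1003 lower in CHG.

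The gap between ago59 and wt21 was 0.207, 0.0942 and 0.169 points for genes in CG, CHG and CHH after the chloroplast correction, with the sign turned round in CHG and CHH, and -0.226 for elements in CHH. Over all calls it was 0.00537 (genes CG), -2.23 (elements CHG), -0.116 (genes CHH) and -0.123 (elements CHH). As medians it was 0 (genes CG), 0 (elements CG), -0.0773 (genes CHG), -0.414 (elements CHG), -0.105 (genes CHH) and -0.0432 (elements CHH). The cause was not tested. Depth limits single elements: the median element had 15 CG calls in ago59 sperm and 19 in ago59 stem.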
